A study of Mus musculus with 8 samples.

Results

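Expression of 10 genes that encode hypothalamic neuropeptides (Pmch, Hcrt, Avp, Oxt, Pomc, Agrp, Trh, Gal, Ghrh and Cartpt) was followed in forebrain RNA of TgCRND8 mice and their non-transgenic littermates at 18 months of age. The members were taken by symbol, through their Ensembl identifiers, from a table of raw counts for 56748 genes; all 10 were found, and all 10 were abundant enough to be tested among 21588 genes. The transgenic (Tg) mice overexpress the human amyloid precursor protein with the Swedish and Indiana mutations under the hamster prion protein promoter, so that expression is not limited to 1 cell type. The non-transgenic (NTg) group carries no transgene. Each genotype had 4 libraries, made from one frozen side of the brain, pulverised and named forebrain in the extraction protocol, and no drug treatment is recorded. Whether every library came from its own animal is not stated; otherwise the p-values reflect library spread alone, which may be technical. All 8 carry the value F under batch; the labels do not say what F stands for, which could be a batch or the sex, so no batch could be separated.

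Neuropeptides are cut from larger precursor proteins and released from dense-core vesicles. In the hypothalamus each is made by small clusters of neurons: melanin-concentrating hormone (Pmch) and orexin (Hcrt) by cells of the lateral hypothalamus, vasopressin (Avp) and oxytocin (Oxt) by magnocellular cells of the paraventricular and supraoptic nuclei, and Pomc, Agrp and Ghrh by cells of the arcuate nucleus. Trh, Gal and Cartpt have further sources in the forebrain and brainstem, which counts from whole tissue cannot separate from the hypothalamic ones. For the other members, Avp included, such counts do not show which cells made the RNA either. In such counts fewer cells of a type and less RNA per cell cannot be told apart.

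Library totals were 57129090 to 65242741 counts. App, the mouse gene that can take up transgene reads, had 1390 to 1623 CPM (counts scaled to library size) across NTg and 2532 to 2980 CPM across Tg. It was the check of the labels, and the genotypes did not overlap in it (log2 fold change 0.94, SE 0.07, edgeR adjusted p = 0.00146). Genes of hypothalamus were detected: of 28 that mark hypothalamic neurons and their precursors, 24 were abundant enough to be tested. So were 161 of the 185 genes in all lists besides the members, and some markers, such as Prlr, are made elsewhere too. The counts therefore do not show how much hypothalamus each library held. Otp, a transcription factor of neuroendocrine neurons, lay at 1.32 to 3.70 CPM.

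None of the 10 peptide genes showed a genotype difference larger than the spread between libraries. The quasi-likelihood test of edgeR called 0 of 10 at an adjusted p of 0.05, where it called 0.0139% of all tested genes, and 0 of 10 had an unadjusted p under 0.05, against 7.36% of all tested genes. In 0 of 10 did the 4 Tg libraries lie entirely above or below the 4 NTg libraries, against 4.2% of all tested genes (2.62% higher and 1.58% lower). DESeq2, which called 1.68% of the genes it tested, and limma-voom also called 0 members. The log2 fold changes (Tg over NTg) were negative for 5 genes and positive for 5, with a median of -0.10 beside -0.0024 for all tested genes. What varied was the level from library to library: the peptides of the lateral hypothalamus were near absent in 3 libraries, NTg replicate 4, Tg replicate 2 and Tg replicate 4, and abundant in the other 5. The plot of CPM by genotype shows each library.

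**Figure D1:**
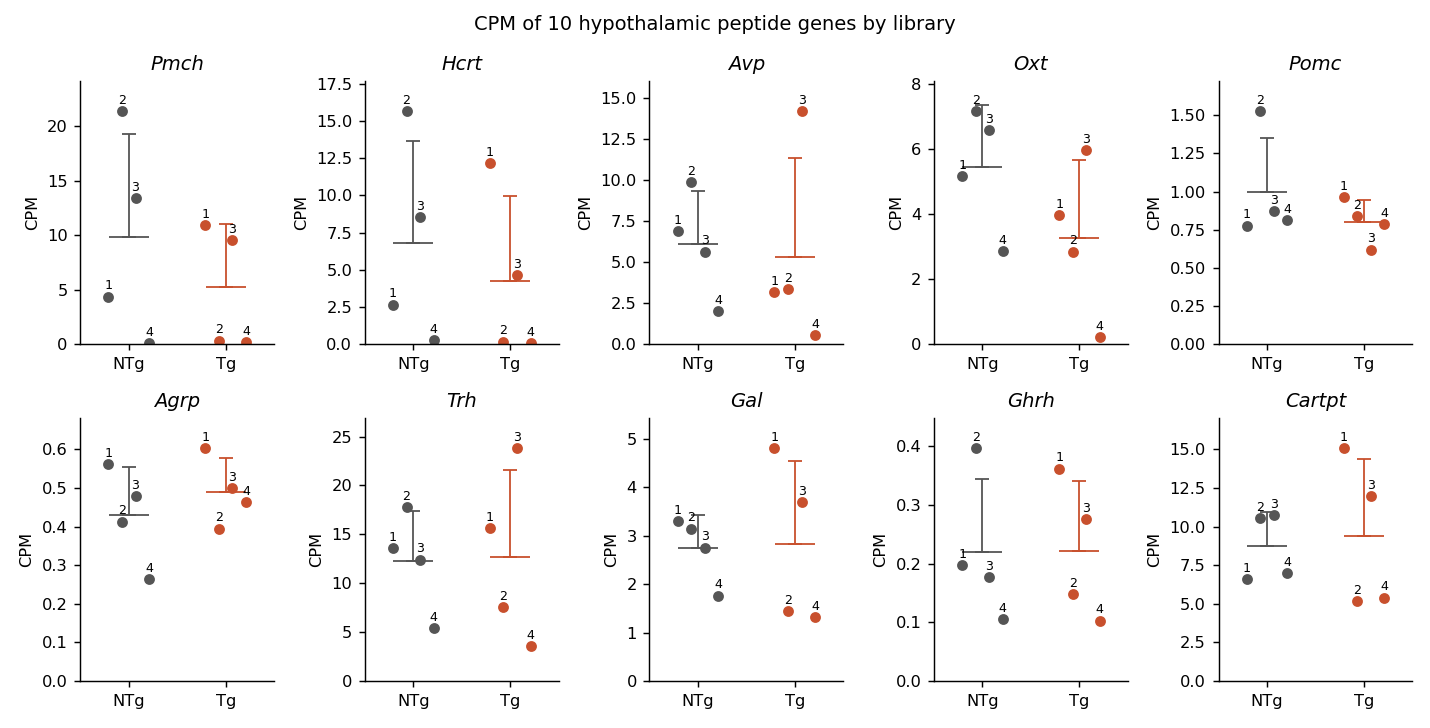
CPM of each of the 10 peptide genes (vertical axes, linear, from 0) in the 4 NTg (grey) and 4 Tg (orange) libraries. Points are libraries with their replicate number, the horizontal mark is the mean and the bar is 1 SD upward; the genotypes overlap in every panel, and Pmch and Hcrt lie near 0 in NTg 4, Tg 2 and Tg 4.

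The sequences before the start of 4 of these genes are shown because their counts were low in shared libraries, Pmch and Hcrt in 3 of them and Oxt and Avp most of all in Tg replicate 4. This does not set the 4 apart. Trh, Gal and Ghrh, not shown, were also lowest in Tg replicate 4, and NTg replicate 4 and Tg replicate 2 were their next lowest. The sequences are the 250 bases upstream of the start annotated by RefSeq (build GRCm38.p6), which had an entry for 9 of the 10 members. Pmch is shown at chr10:88090822-88091071 on the plus strand, Hcrt at chr11:100762932-100763181 on the minus strand, Oxt at chr2:130575919-130576168 on the plus strand and Avp at chr2:130582589-130582838 on the minus strand. Capitals mark matches to 4 motifs on either strand: the TATA box TATAAA, the E-box CACGTG, the hormone response half-site TGACC and the half-site TGACG of the cyclic AMP response element.
Pmch: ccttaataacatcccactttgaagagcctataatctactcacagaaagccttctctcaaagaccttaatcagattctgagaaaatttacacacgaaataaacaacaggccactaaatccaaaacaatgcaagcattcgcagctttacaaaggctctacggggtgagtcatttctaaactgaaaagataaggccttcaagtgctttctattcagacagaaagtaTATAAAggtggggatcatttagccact
Hcrt: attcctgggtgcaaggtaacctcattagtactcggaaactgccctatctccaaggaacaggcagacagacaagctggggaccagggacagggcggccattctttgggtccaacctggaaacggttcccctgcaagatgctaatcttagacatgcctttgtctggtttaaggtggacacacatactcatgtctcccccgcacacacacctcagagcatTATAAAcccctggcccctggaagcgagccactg
Oxt: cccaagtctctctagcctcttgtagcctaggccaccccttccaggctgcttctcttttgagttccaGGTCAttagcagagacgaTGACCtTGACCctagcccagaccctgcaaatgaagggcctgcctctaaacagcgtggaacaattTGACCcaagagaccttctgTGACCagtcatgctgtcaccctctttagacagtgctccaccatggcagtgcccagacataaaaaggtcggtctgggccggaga
Avp: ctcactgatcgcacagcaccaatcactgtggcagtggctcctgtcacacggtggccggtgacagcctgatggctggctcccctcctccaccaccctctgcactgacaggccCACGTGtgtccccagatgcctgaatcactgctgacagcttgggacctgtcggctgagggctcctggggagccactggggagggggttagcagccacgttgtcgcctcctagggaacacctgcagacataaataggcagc

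Pmch and Hcrt each held 1 TATA box, 27 and 33 bases before the start, a motif found in 12.4% of 32851 windows of the same length before RefSeq genes, and no match to the other 3 motifs. The TATA box was not particular to them among the members. Pomc, which was lowest in Tg replicate 3, held 1 at 25 bases before its start. Ghrh held 1 at 31 bases before 1 of its annotated starts. Oxt held 5 hormone response half-sites, a motif with at least 1 match in 35.2% of windows, and none of the others. Avp held 1 E-box, 139 bases before the start, found in 6.02% of windows. The half-site TGACG, present in 17.8% of windows, was in none of the 4. A match describes the letters only. Oxt and Avp are neighbours among protein-coding genes of chromosome 2 in the GENCODE M21 annotation and are read toward each other.

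Pmch, the precursor of melanin-concentrating hormone, which promotes feeding and sleep, had the largest SD of log2 CPM within genotype of the 10 members, 3.10. It lay at 4.36, 21.4, 13.4 and 0.124 CPM in NTg replicates 1 to 4 and at 10.9, 0.329, 9.53 and 0.189 CPM in Tg replicates 1 to 4. Both genotypes thus held libraries with abundant and with almost no Pmch, and their ranges overlapped. The highest library, with 1345 counts, stood 173-fold above the lowest, with 7 counts. The 3 low libraries had 7, 20 and 11 counts, and the largest upper bound of their exact Poisson 95% intervals was 0.508 CPM, well under the 4.36 CPM of the next library. These intervals cover counting error only. Averages were 9.81 ± 9.49 CPM for NTg against 5.24 ± 5.78 CPM for Tg (SD, n = 4; the log2 fold change was -0.90 with SE 1.23, edgeR adjusted p = 0.947). The 95% interval of this difference, from -3.66 to 1.86 on the log2 scale, leaves room for a 3.62-fold rise as well as a large fall. In GENCODE M21 the exons of Pmch share 435 of their 749 bases with exons of Parpbp on the other strand, and the library kit does not mark strand. Parpbp, whose product binds the DNA repair enzyme PARP1, lay at 0.248 to 0.724 CPM in the 8 libraries, so reads of the pair cannot be told apart in the 3 libraries with the least Pmch.

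Hcrt, the precursor of the orexins, which sustain wakefulness, was low in the same 3 libraries, though the order of the libraries was not identical. Its values were 2.66, 15.7, 8.53 and 0.300 CPM in NTg replicates 1 to 4 and 12.2, 0.181, 4.66 and 0.0514 CPM in Tg replicates 1 to 4. NTg replicate 4, Tg replicate 2 and Tg replicate 4 had 17, 11 and 3 counts, and the lowest was Tg replicate 4 for Hcrt but NTg replicate 4 for Pmch. The 3 counts of Tg replicate 4 have an exact Poisson 95% interval of 0.0106 to 0.150 CPM. No annotated gene overlaps Hcrt in GENCODE M21. Averages were 6.78 ± 6.85 CPM for NTg against 4.27 ± 5.69 CPM for Tg (SD, n = 4; log2 fold change -0.66, SE 1.26, 95% interval -3.48 to 2.15, edgeR adjusted p = 0.970). The log2 ratio of Pmch to Hcrt stayed between -1.09 and 1.39 in the 8 libraries. Because the libraries fall into 2 separate sets in these genes, their correlations are not used as tests.

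**Figure D2:**
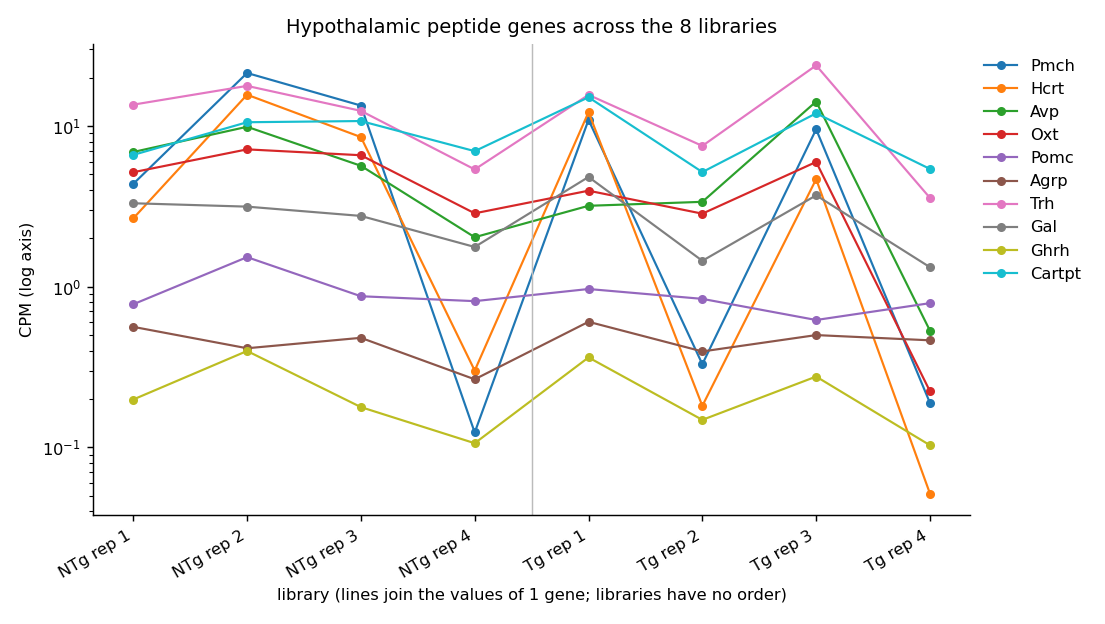
CPM on a log axis of the 10 peptide genes in each library (horizontal axis, NTg left and Tg right of the grey line; lines join the values of 1 gene). Pmch and Hcrt are at most 0.329 CPM in NTg replicate 4, Tg replicate 2 and Tg replicate 4, Avp and Oxt are lowest in Tg replicate 4, and Pomc and Agrp span 2.46-fold and 2.28-fold.

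The magnocellular hormones were less extreme. Avp, the antidiuretic hormone, lay at 6.89, 9.88, 5.65 and 2.03 CPM in NTg replicates 1 to 4 and at 3.18, 3.37, 14.2 and 0.531 CPM in Tg replicates 1 to 4. Tg thus held both the highest and the lowest library. Its means were 6.11 ± 3.25 and 5.32 ± 6.06 CPM (SD, n = 4; log2 fold change -0.20, SE 0.76, 95% interval -1.91 to 1.51, edgeR adjusted p = 0.987). Oxt, the hormone of milk ejection and labour, lay at 5.15, 7.15, 6.57 and 2.86 CPM in NTg and 3.95, 2.84, 5.97 and 0.223 CPM in Tg. Its lowest value by far was Tg replicate 4, with 13 counts; Tg replicates 1 and 3 lay within the NTg range and Tg replicate 2 just below it. Averages were 5.43 ± 1.91 CPM for NTg against 3.25 ± 2.40 CPM for Tg (log2 fold change -0.74, SE 0.64, 95% interval -2.17 to 0.69, edgeR adjusted p = 0.906). With the replicate number as a block, edgeR gave Oxt a log2 fold change of -1.11 at an unadjusted p = 0.0494 and an adjusted p = 0.749. The log2 ratio of Avp to Oxt ran from -0.49 to 1.24 and was highest in Tg replicate 3 and Tg replicate 4.

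Both hormones are released in the posterior pituitary. Of 10 pituitary genes only 3 were abundant enough to be tested. Among these genes, named after their values were seen, Lhb, a subunit of luteinising hormone, had 0 counts in all 8 libraries, and Gh, growth hormone, had 0 in 5. Prl, prolactin, was highest in Tg replicate 3 at 2.39 CPM and NTg replicate 3 at 1.42 CPM and had 0 counts in 3 libraries. Tshb, of thyroid-stimulating hormone, went another way, lowest in Tg replicate 3 at 1.15 CPM and highest in NTg replicate 4 at 1.84 CPM. Tg replicate 3 was also the highest library for Avp, whereas NTg replicate 3, at 5.65 CPM of Avp, lay within the range of the other NTg libraries. The part of pituitary tissue in the Avp values was not tested. Summed over the list, the level was 172 to 187 CPM in NTg and 153 to 170 CPM in Tg. Most of it was Chga, a granule protein that neurons make too, at 177 ± 6.02 CPM for NTg against 160 ± 7.03 CPM for Tg (SD, n = 4, edgeR adjusted p = 0.371).

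Arcuate peptides were scarce, and 2 of the 3, Pomc and Agrp, had the narrowest ranges over libraries of all the members. Pomc, the precursor of the satiety signal alpha-MSH, lay at 0.776, 1.53, 0.871 and 0.812 CPM in NTg replicates 1 to 4 and at 0.966, 0.839, 0.619 and 0.789 CPM in Tg replicates 1 to 4. Its range over the 8 libraries was 2.46-fold, and NTg replicate 2 stood apart at the top. The log2 fold change was -0.31 (SE 0.25, 95% interval -0.87 to 0.25, edgeR adjusted p = 0.892). Agrp, the hunger signal that blocks the receptors of alpha-MSH, lay at 0.561, 0.413, 0.480 and 0.265 CPM in NTg and at 0.604, 0.395, 0.499 and 0.463 CPM in Tg (a log2 fold change of 0.19, SE 0.25, 95% interval -0.38 to 0.76, edgeR adjusted p = 0.946). These are 15 to 40 counts a library. The GENCODE M21 model of Agrp spans 70696 bases and overlaps 7 other genes, 5 of them on the other strand. One is Ripor1, at 55.6 to 69.3 CPM. The exons of Agrp share 114 of their 1013 bases with exons of other genes, so some of the Agrp counts may belong to neighbours. Ghrh, which drives the release of growth hormone, lay at 0.198, 0.397, 0.178 and 0.106 CPM in NTg and at 0.362, 0.148, 0.275 and 0.103 CPM in Tg. It rested on 6 to 25 counts a library, and no genotype difference was detected (log2 fold change 0.01, SE 0.48, 95% interval -1.06 to 1.09, edgeR adjusted p = 0.999).

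The 3 peptides with wider expression differed little in mean level between the genotypes, with intervals that still allow a change in either direction. Trh, thyrotropin-releasing hormone, lay at 13.6, 17.8, 12.4 and 5.36 CPM in NTg and at 15.6, 7.51, 23.8 and 3.57 CPM in Tg. NTg replicate 4, Tg replicate 2 and Tg replicate 4 were again the 3 lowest, over a range of 6.68-fold. The means were 12.3 ± 5.15 and 12.6 ± 8.995 CPM (SD, n = 4; log2 fold change 0.04, SE 0.52, 95% interval -1.13 to 1.21, edgeR adjusted p = 0.998). Gal, galanin, an inhibitory peptide of sleep and feeding circuits, lay at 3.30, 3.15, 2.75 and 1.76 CPM in NTg and at 4.81, 1.45, 3.70 and 1.32 CPM in Tg. The log2 fold change was 0.04 (SE 0.40, 95% interval -0.86 to 0.95, edgeR adjusted p = 0.997). Cartpt, a peptide of appetite and reward circuits, lay at 6.61, 10.6, 10.7 and 6.97 CPM in NTg and at 15.1, 5.16, 12.0 and 5.40 CPM in Tg (a log2 fold change of 0.11, SE 0.35, 95% interval -0.66 to 0.89, edgeR adjusted p = 0.985). For Gal and Cartpt the Tg libraries lay both above and below the whole NTg range.

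**Figure D3:**
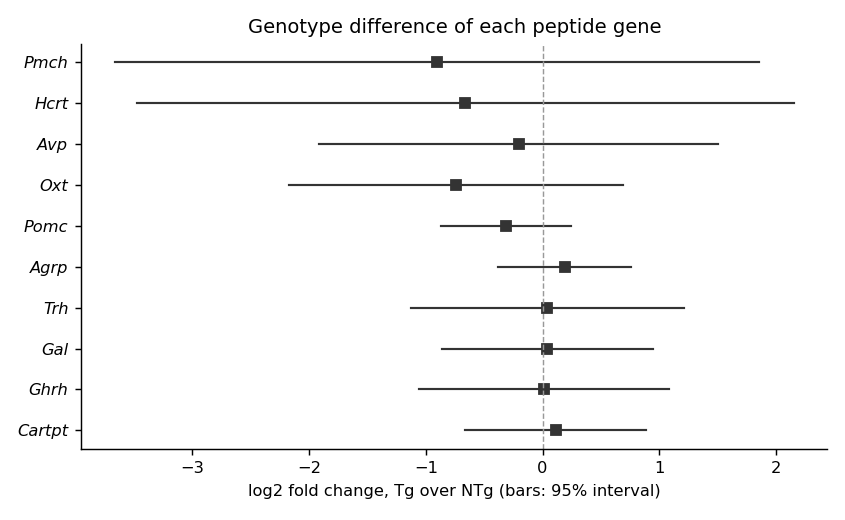
Log2 fold change of each peptide gene, Tg over NTg (squares), with its 95% interval from the edgeR fit (lines). All 10 intervals include 0; they are widest for Hcrt and Pmch and narrowest for Pomc and Agrp.

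Levels can be compared between genes only per length of transcript. Per kilobase of GENCODE M21 exon, the mean over the 8 libraries was 10.05 CPM for Pmch, 9.91 for Avp, 9.001 for Trh, 8.08 for Oxt, 7.38 for Hcrt and 7.10 for Cartpt, all in CPM per kilobase. Each of these 6 had a range over libraries that contained the means of the other 5. Gal followed at 3.53 CPM per kilobase, overlapping the range of Cartpt. Pomc at 0.683, Agrp at 0.454 and Ghrh at 0.331 CPM per kilobase overlapped one another, and the highest Pomc library, at 1.16, lay below the lowest Gal library, at 1.68.

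Most of the peptide genes varied widely between libraries of the same genotype. Within genotype, the SD of log2 CPM was 3.10 for Pmch and 2.99 for Hcrt, the fourth and the eighth largest of 21588 tested genes, where the median gene had 0.150. Avp (1.51), Oxt (1.51), Trh (1.00), Gal (0.72) and Cartpt (0.62) lay above at least 97.0% of the 500 genes nearest to each in mean level. Ghrh, at 0.69, lay above 85.6% of its 500 nearest genes, whose median SD was 0.45. Pomc (0.36) lay above 71.4%, and Agrp (0.35), above 49.2%, was close to the median of its level, 0.35.

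**Figure D4:**
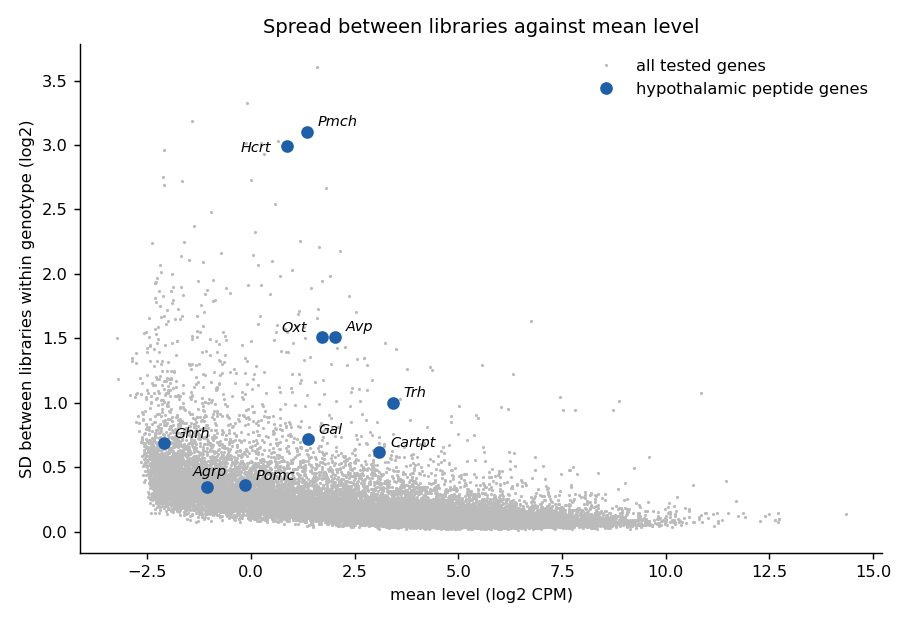
SD of log2 CPM between libraries of 1 genotype (vertical axis) against mean log2 CPM (horizontal axis) for all 21588 tested genes (grey) and the 10 peptide genes (blue). Pmch and Hcrt, at 3.10 and 2.99, stand near the top, whereas Pomc and Agrp lie within the cloud.

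Most members were low in the same libraries. Ranked by CPM, NTg replicate 4 was among the 3 lowest libraries for 8 of the 10 genes, Tg replicate 2 for 8 and Tg replicate 4 for 9, and none of these was among the 3 highest for any. NTg replicate 2 was the highest for 5 genes, Tg replicate 1 for 3 and Tg replicate 3 for 2. Among the 8 genes other than Pmch and Hcrt, all 28 pairs had a positive Pearson correlation of genotype-centred log2 CPM, with a median r of 0.68. Over all pairs of 14018 named genes with at least 1 CPM, 49.96% were positive and the median was -0.00055. The 28 pairs share genes and libraries, so they are not independent. The closest pair was Avp with Trh (r = 0.94, exact two-sided permutation p = 0.00521 with libraries exchanged within genotype, adjusted 0.0497 over the 45 pairs computed, n = 8). Its Spearman rho was 0.83 (exact permutation p = 0.0382, adjusted 0.132), and r was 0.85 without Tg replicate 4 and Tg replicate 3, the libraries farthest from the median of Avp. Avp with Oxt had r = 0.91 and rho = 0.64 (exact permutation p = 0.0104 and 0.115, adjusted 0.0497 and 0.234), and r = 0.74 without those libraries. Over the 28 pairs, 4 had an adjusted p of r under 0.05 and 0 of rho. The adjustment spanned all 45 pairs, 11 of them under 0.05, and so included the pairs with Pmch or Hcrt. Those pairs are not used as tests, and an adjustment over the 28 alone was not run. The 4 are therefore given as a description and not as passes. The lowest pair, Avp with Pomc, had r = 0.02 and rho = -0.19. Several of these relations rest on 2 libraries: rho was negative for 5 of the 28 pairs, and r turned negative for 7, 6 of them with Pomc, without the 2 libraries farthest from the median of the first gene. Pomc with Gal, for example, went from r = 0.13 to -0.81 without NTg replicate 2 and Tg replicate 1, and Oxt with Agrp from 0.31 to -0.21 without Tg replicate 4 and NTg replicate 4.

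The genes whose profile was most like each member were ranked by r over the 8 libraries, as a description. Nearest to Pmch were Dpysl3 (r = 0.98), Shisa9 (0.98) and Hcrt itself (0.97), and nearest to Hcrt were Pcdh17 (0.99), Pi16 (0.98) and Plekhb2 (0.97). Nearest to Oxt were Pdzph1 (0.99), Ift57 (0.98) and Tmem199 (0.98), and nearest to Avp were Chrm2 (0.98), Gpr155 (0.98) and Sash1 (0.98). The list was Slc30a6, Slc18b1 and Stxbp4 for Trh, Plekhb2, Foxp2 and Fgfr2 for Gal, and Wnk3, Pja1 and Anapc10 for Cartpt. It was Evpl, Pax2 and Htt for Pomc, Cyb561d2, Ddx24 and Faim2 for Agrp, and Fign, Inka1 and Pi16 for Ghrh. Such values are common with 8 libraries: the third-nearest gene of a typical named gene had r = 0.97. Dpysl3, a neuronal growth-cone protein, moved far less than Pmch, with an SD of log2 CPM of 0.11 within genotype.

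Other hypothalamic genes showed part of the same order of libraries. The mean of the 24 tested identity genes, relative to the NTg mean on the log2 scale, was -0.39 in NTg replicate 4, -0.47 in Tg replicate 2 and -0.88 in Tg replicate 4, and -0.16 to 0.35 in the other 5. Of these genes 0 passed edgeR over all genes, 0 were higher and 4 lower at an unadjusted p under 0.05 (background 4.68% and 2.68%), and 3 lay entirely lower in Tg (background 1.58%). Among the 3 were Prlr, the prolactin receptor, with 19.8 ± 6.70 CPM for NTg against 9.86 ± 3.11 CPM for Tg (SD, n = 4, edgeR adjusted p = 0.214), and Tbx3, a transcription factor, with 2.29 ± 0.373 against 1.64 ± 0.190 CPM (edgeR adjusted p = 0.386). Prlr is also strong in the choroid plexus, whose 10 markers were all lower in Tg, 8 of them at an unadjusted p under 0.05 (2.68% of all tested genes) and 0 called by edgeR over all genes. The most abundant identity genes, Baiap3, a regulator of dense-core vesicle traffic, and Dlk1, a Notch-like protein, had adjusted p = 0.997 and 0.994 and were highest in Tg replicate 1, at 83.7 and 51.8 CPM.

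**Figure D5:**
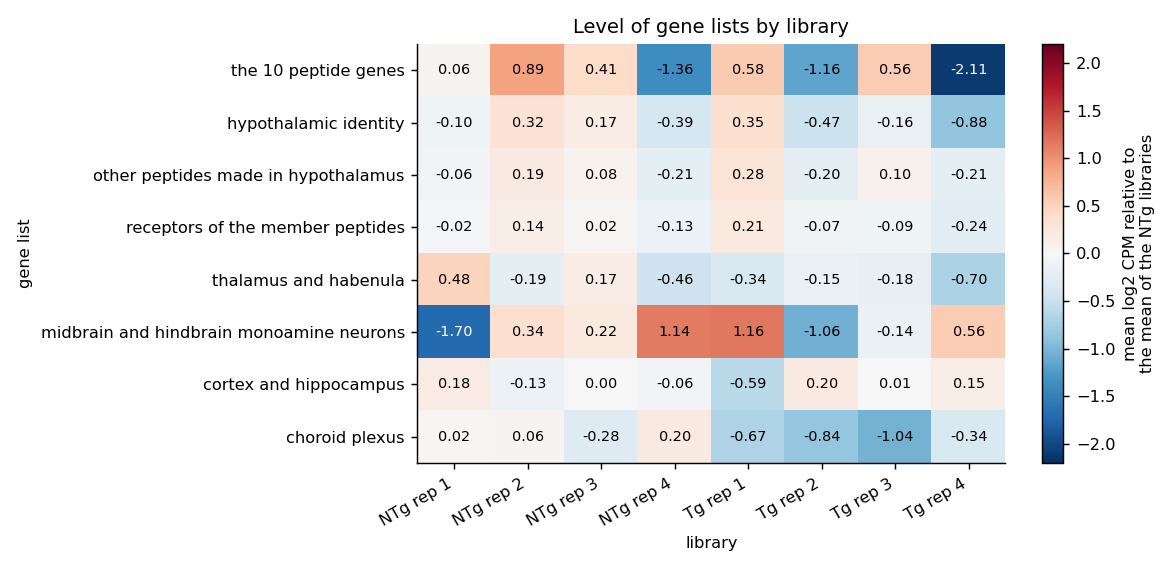
Mean log2 CPM of gene lists (rows) in each library (columns), minus the NTg mean; red is higher, blue is lower, and each cell gives its value. The 10 peptide genes are lowest in Tg replicate 4 (-2.11), NTg replicate 4 (-1.36) and Tg replicate 2 (-1.16). Hypothalamic identity genes and the other peptides made in hypothalamus are lowest in the same 3 libraries. The receptor and thalamic lists are lowest in Tg replicate 4 and NTg replicate 4, while monoamine and cortical lists follow other orders.

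Lists for other regions shared the order of the peptide genes in part or not at all. Markers of monoamine neurons of the midbrain and hindbrain, had their highest list means in Tg replicate 1 (1.16) and NTg replicate 4 (1.14), followed by Tg replicate 4 (0.56), and their lowest in Tg replicate 2 (-1.06) and NTg replicate 1 (-1.70). The list did not move as one: the most abundant members, Th and Slc6a3 of dopamine cells, were at 8.79 and 3.21 CPM in NTg replicate 4, below their NTg means of 16.3 and 16.4 CPM. Tph2, the serotonin-synthesising enzyme, chosen after its values were seen, lay at 35.0 CPM in NTg replicate 4 and 29.4 CPM in Tg replicate 1 and at 2.00 to 4.95 CPM in the other 6. Thalamic and habenular markers were lowest in Tg replicate 4 (-0.70) and NTg replicate 4 (-0.46), as the peptide genes were, and highest in NTg replicate 1 (0.48). Striatal markers were highest in NTg replicate 2 (0.29), Tg replicate 1 (0.17), NTg replicate 3 (0.14) and Tg replicate 3 (0.03). These were also the highest libraries of the peptide genes. The striatal list was lowest in Tg replicate 2 (-0.45) and NTg replicate 1 (-0.22). Cortical and hippocampal markers lay between -0.59 in Tg replicate 1 and 0.20 in Tg replicate 2. The part of the regional make-up of the tissue in the peptide levels was not tested.

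Receptors of the 10 peptides sit mostly on neurons outside the peptide-making clusters, and those tested did not pass. Of 18 receptor genes 13 were tested, and edgeR called 0 over all genes (median log2 fold change -0.07; 2 higher and 0 lower at an unadjusted p under 0.05, against 4.68% and 2.68% of all tested genes, and 0 with separate genotypes, against 4.2%). Mchr1, the receptor of melanin-concentrating hormone, averaged 12.5 ± 1.36 CPM for NTg against 11.9 ± 0.444 CPM for Tg, and Trhr, that of Trh, at 7.09 ± 1.01 and 7.73 ± 2.70 CPM (SD, n = 4; edgeR adjusted p = 0.939 and 0.967). The 3 libraries with little Pmch were also the 3 lowest for Mchr1, at 10.5, 11.3 and 11.7 CPM, with the other 5 at 12.2 to 13.5 CPM. The 2 receptors under an unadjusted 0.05, named after their values were seen, were Mc5r (mean 0.882 CPM in NTg, 1.24 CPM in Tg, edgeR adjusted p = 0.626) and Galr3 (mean 0.130 CPM in NTg, 0.249 CPM in Tg, edgeR adjusted p = 0.657).

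The machinery that cuts and amidates peptide precursors was abundant and also did not pass the test. Of 13 processing and breakdown genes 0 were called by edgeR and 0 had an unadjusted p under 0.05 (7.36% of all tested genes did), with a median log2 fold change of -0.06. Cpe, carboxypeptidase E, averaged 1654 ± 63.0 CPM for NTg against 1582 ± 98.7 CPM for Tg, and Scg5, the chaperone of the convertase PC2, at 378 ± 79.8 and 311 ± 103 CPM (SD, n = 4; edgeR adjusted p = 0.910 for both). Among 27 other peptides made in hypothalamus, 21 were tested and 0 called, with 1 higher and 1 lower at an unadjusted p under 0.05 (background 4.68% and 2.68%) and a median of 0.02. The most abundant were Penk (135 ± 21.3 and 126 ± 29.1 CPM) and Cck (116 ± 12.9 and 117 ± 26.3 CPM), which cortex and striatum make in quantity. Kiss1, the peptide that drives the reproductive axis, had 0 counts in all 8 libraries.

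Receptors and regulators through which hormones reach these neurons gave 0 calls of 14 in edgeR, with 1 higher and 2 lower at an unadjusted p under 0.05 (4.68% and 2.68% of all tested genes) and a median of -0.09. The glucocorticoid receptor Nr3c1 was at 130 ± 8.37 and 124 ± 10.7 CPM and the insulin receptor Insr at 52.9 ± 2.01 and 52.0 ± 2.96 CPM (n = 4, edgeR adjusted p = 0.921 and 0.973). Tanycytes, the glia that line the floor of the third ventricle, had 7 of 8 markers tested and 0 called (median -0.06). Dio2, which activates thyroid hormone, was at 45.9 ± 6.36 and 45.3 ± 8.03 CPM, and whole-tissue counts do not show how much of it tanycytes made. The marker not tested was Rax, named after its values were seen, with 2 to 7 counts a library. Of the 9 markers of septum and basal forebrain, 7 of striatum and 6 of ependyma that were tested, edgeR called 0, and 1 of them, in the septal list, was lower at an unadjusted p under 0.05 (2.68% of all tested genes). All 10 microglial markers were higher in Tg at an unadjusted p under 0.05, where 4.68% of all tested genes were, and edgeR called 0 of them over all genes. Their mean was 0.53 above that of NTg in Tg replicate 1 and 1.33 to 1.34 in the other Tg libraries, whereas the peptide genes were at 0.58 in Tg replicate 1 and ran from -2.11 to 0.56 in the others.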

How the data were processed

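Polyadenylated RNA of 8 forebrain libraries was sequenced as paired-end reads of TruSeq version 2 libraries on a NextSeq 500, per the labels' protocols. The authors deposited raw counts per Ensembl gene without normalization; STAR, DESeq2 and GRCm39 are named, per the submitters' processing notes, with the counting tool and annotation not given in the sources used here. Symbols came from a name table that matched 52073 identifiers (99.58% of counts), and 0 columns belonged to other series. Gene models (GENCODE M21) and sequences (RefSeq) are on GRCm38, an older build, and were not joined to the counts by position.

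Genes were kept by filterByExpr (minimum count 10, minimum total 15), scaled by TMM and compared, Tg against NTg, by the quasi-likelihood test of edgeR (edgeR 4.0.16, limma 3.58.1, DESeq2 1.42.0, sva 3.50.0, R 4.3.3), with p-values adjusted by Benjamini-Hochberg across the 21588 genes. CPM uses TMM-scaled library sizes, log2 CPM a prior count of 2, and SEs were derived from the fold change and its F statistic. The fit was tested on simulated data. Every pair of libraries of a genotype differed beyond sampling noise (chi-square per degree of freedom of at least 11.0).

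The members and 15 other lists (185 genes, 161 tested) were chosen with earlier results of these data known. Named genes are all members; in each list, up to 4 called genes or, failing that, genes under an unadjusted p of 0.05 with separate genotypes, and the 2 most abundant; and the 3 genes most like each member. Parpbp, Ripor1, Otp and others said to be so in the text, and Kiss1 and the pituitary genes other than Chga, were added after their values were seen, and some list genes that the rule admits are given only as counts or are not reported here. Alternatives were DESeq2, limma-voom, robust dispersion, other scaling, no or a stricter filter, 1 surrogate variable, the replicate number as a block, the hypothalamic identity level as a covariate, an FDR of 0.01, a prior count of 0.5 and each library left out.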

Additional observations from a re-analysis of the deposited data

Results flagged for a closer look

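Of 22 groups of 4 libraries examined (10 peptide genes and App in each genotype), 2 held a library far from the other 3 by Dixon's criterion, which chance alone gives in about 1 group of 20. Pomc was 1.53 CPM in NTg replicate 2 and 0.776 to 0.871 CPM in the other NTg libraries. App stood at 2532 CPM in Tg replicate 1, below the remaining 3 Tg libraries at 2934 to 2980 CPM. Pmch and Hcrt did not meet the criterion.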

How the results depend on the processing

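The count of peptide genes called was 0 under every alternative run, and the lowest adjusted p of any member was 0.651. Of 187 member values under the alternatives, 161 kept the main direction. With the replicate number as a block, the count at an unadjusted p under 0.05 went from 0 to 1 (Oxt); the labels do not say that the numbers pair the libraries, and same-numbered libraries correlated at -0.03 to 0.16 over all tested genes, with 2 of 4 NTg libraries closest to their own number. The block also turned Trh to -0.15, Gal to -0.11 and Cartpt to -0.0069. The covariate of hypothalamic identity genes turned Pmch to 0.67, Hcrt to 0.40 and Avp to 0.50. Limma-voom turned Trh to -0.18 and Gal to -0.13, and 1 surrogate variable turned Trh to -0.022. The causes were not tested.

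Leaving out 1 library gave log2 fold changes of -2.06 to 0.16 for Hcrt (positive without NTg replicate 2), -1.37 to 0.17 for Avp (positive without NTg replicate 2 or Tg replicate 4), -0.46 to 0.35 for Trh (negative without NTg replicate 4, Tg replicate 1 or Tg replicate 3), -0.35 to 0.28 for Gal (negative without the same 3), -0.34 to 0.47 for Ghrh (negative without NTg replicate 1, 3 or 4 or Tg replicate 1 or 3) and -0.21 to 0.31 for Cartpt (negative without NTg replicate 1, Tg replicate 1 or Tg replicate 3). Pmch (-1.56 to -0.18), Oxt (-1.21 to -0.35), Pomc (-0.41 to -0.03) and Agrp (0.02 to 0.34) kept their sign. The stricter filter left no value for Pomc, Agrp and Ghrh, and DESeq2 gave 1 member, Ghrh, no adjusted p. Counts of 3 to 20 in the lowest libraries limit Pmch and Hcrt there, and 6 to 40 a library limit Ghrh and Agrp.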
